A study of Mus musculus with 24 samples.

Results

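The organic ion and drug transporters were 59 mouse genes, chosen by symbol alone from the 19505 genes named on the array. They comprised 24 Slc22a genes, 14 Slco genes, 2 Slc47a genes, 9 Abcb genes and 10 Abcc genes, each measured by 1 probe. Their values were the deposited log2 values, so a difference of 1 is a doubling on that scale. Kidney RNA was profiled in 4 groups of male C57BL/6N mice aged 10 weeks, with 24 Clariom S arrays in all. A sham group given a mock oligonucleotide and a sham group given anti-miR-22 had 5 arrays each, and the corresponding glycerol groups had 7 arrays each. Glycerol (50%) was injected into the calf muscle to break down muscle and injure the kidney, and kidneys were taken 24 h later. The labels do not say whether a mild or a severe dose was used. Sham animals went through the rest of the protocol without glycerol. Every group, shams included, had received 20 mg/kg of its oligonucleotide subcutaneously 24 h earlier, the pain reliever carprofen at a dose of 5 mg/kg, and 23 h without water, and no group was free of these treatments. The RNA came from halved kidneys that hold all kidney cell types.

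These families carry charged and lipophilic molecules across cell membranes. In the proximal tubule, Slc22a carriers on the blood side take up organic anions and cations, and Slc47a exchangers and Abcc pumps of the luminal side pass them to the urine. Slco carriers move bile salts, steroid conjugates, prostaglandins and many drugs. Abcb genes include the P-glycoproteins, which pump lipophilic compounds out of cells, and carriers of mitochondria and lysosomes.

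The oligonucleotides are shown first because every comparison between them rests on these bases. The mature miRNA sequence is from RefSeq (build GRCm38.p6, chr11:75463772-75463793, plus strand) with its seed, bases 2 to 8, in capitals. Anti-miR-22 is complementary to bases 2 to 16 of the miRNA, and its capitals mark the bases opposite the seed. The mock oligonucleotide differs from it at 4 bases, which are in capitals, and 1 of these lies opposite the seed.
mmu-miR-22-3p: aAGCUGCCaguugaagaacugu
anti-miR-22: cttcaactGGCAGCT
mock: ctAcTacAggcTgct

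With the mock oligonucleotide, glycerol was followed by lower values of most Slc22a genes and higher values of the P-glycoprotein and several Abcc genes. Of the 59 genes, 37 passed an adjusted p below 0.05 in limma (Benjamini-Hochberg over all 22205 probes), 28 of them lower and 9 higher. That is 62.7% of the genes, against 34.4% of all probes (16.4% lower and 18% higher). The median difference over the 59 genes was -0.39, against -9e-04 over all probes. With anti-miR-22, 41 genes (69.5%) passed, 31 lower and 10 higher, against 37.4% of all probes (17.6% lower and 19.8% higher), and the median was -0.55 against 0.0028. In 23 genes every glycerol mock array lay below every sham mock array, and in 7 every one lay above, where 9.85% and 11.3% of all probes did so. With anti-miR-22 the corresponding numbers were 25 and 5 genes, against 11.2% and 12.7% of probes. The same 28 genes were lower and the same 9 higher with both oligonucleotides. Abcb9, Abcb10 and Slc22a12 passed as lower with anti-miR-22 and not with mock, and Slco4a1 passed as higher with anti-miR-22 and not with mock. The difference between the glycerol effects missed the threshold for each of these 4 genes.

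**Figure D1:**
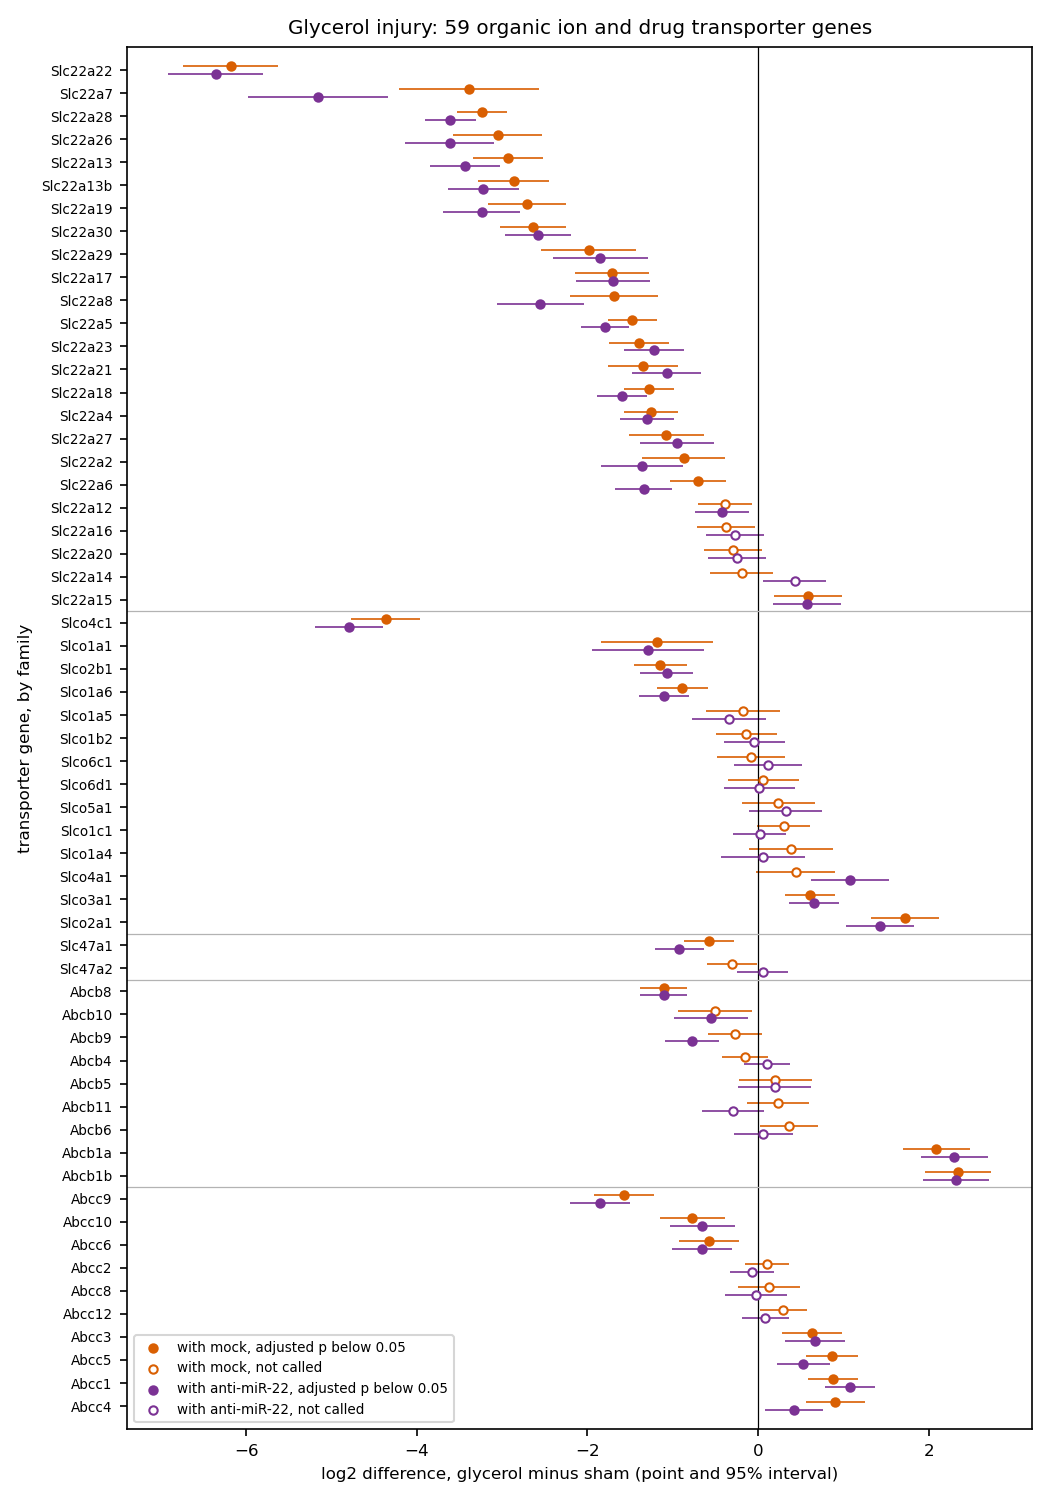
Each row is 1 of the 59 genes, grouped by family, with the log2 difference of glycerol minus sham (point) and its 95% interval (line) for mock and for anti-miR-22, filled where the adjusted p was below 0.05. Most Slc22a points lie left of 0, down to Slc22a22 at -6.18 with mock, while Abcb1a and Abcb1b lie furthest to the right at 2.09 and 2.34.

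The proximal tubule markers moved in the same direction as the Slc22a genes. Of 15 measured markers, 14 were lower with mock and 15 with anti-miR-22, and 0 were higher. Their summed log2 level was 250.53 to 252.69 on the sham mock arrays and 251.35 to 254.2 on the sham anti-miR-22 arrays. It was 215.18 to 226.97 on the glycerol mock arrays and 210.77 to 219.39 on the glycerol anti-miR-22 arrays. The 9 markers of the thick limb and distal tubule were lower in both comparisons, and 6 of 8 collecting duct markers were. Of the 8 macrophage markers 5 were higher and 1 lower in each comparison, with sums of 49.56 to 54.38 in sham mock and 57.82 to 61.81 in glycerol mock. Of the 5 neutrophil markers 4 were higher and 0 lower in each. Of the 6 stroma markers 5 were higher and 1 lower in each, with median differences of 1.52 with mock and 1.41 with anti-miR-22. The stroma sums were 53.96 to 56.52 in sham mock, 54.62 to 56.33 in sham anti-miR-22, 61.24 to 64.55 in glycerol mock and 60.75 to 64.91 in glycerol anti-miR-22. All 7 tubular injury genes were higher in each comparison. With mock, the higher and lower counts were 0 and 2 of 5 T cell markers, 1 and 1 of 4 podocyte, 1 and 2 of 6 hepatocyte, 0 and 0 of 6 skeletal muscle and 1 and 0 of 5 adrenal markers. With anti-miR-22 they were 0 and 1, 0 and 1, 1 and 3, 1 and 0, and 1 and 0 in the same order. In whole kidney, fewer cells of a type and less RNA per cell cannot be told apart, and the part of these shifts in the transporter values was not tested. Sham mock array 1 stood apart in injury genes (Havcr1 14.59 against 7.00 to 7.74 on the other sham mock arrays). Its proximal tubule sum of 252.22 lay within the range of the other sham arrays, and leaving it out changed 1 transporter call over both glycerol comparisons: Slc22a16, not called with all arrays (-0.38), then passed (-0.53, adjusted p = 0.0121).

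Among the 14 organic anion carriers of Slc22a, 12 were lower with mock and 13 with anti-miR-22, and 0 were higher. Slc22a6 (OAT1) and Slc22a8 (OAT3) are the blood-side carriers that exchange organic anions, among them diuretics, antivirals and urate, for dicarboxylates. Slc22a6 read 17.24, 17.26, 16.78, 17.25 and 17.23 on the sham mock arrays and 17.11, 17.22, 17.05, 17.11 and 16.92 on the sham anti-miR-22 arrays. On the glycerol mock arrays it ran from 15.98 through a median of 16.44 to 16.79, and on the glycerol anti-miR-22 arrays from 15.30 through 15.57 to 16.33. The ranges of both glycerol groups were lower than those of the shams, with an overlap only between glycerol mock and sham mock array 3. The fall was 1.63-fold with mock (log2 -0.70 ± 0.16 SE, adjusted p = 0.000855) and 2.53-fold with anti-miR-22 (-1.34 ± 0.16, adjusted p = 5.4e-08). Slc22a8 read 17.06, 17.04, 16.86, 17.23 and 17.23 with sham mock, and 16.92, 16.88, 16.31, 17.02 and 17.02 with sham anti-miR-22. Its glycerol values ran from 14.57 through 15.45 to 16.04 with mock and from 13.60 through 14.03 to 15.14 with anti-miR-22. No glycerol array reached a sham array of the same oligonucleotide. It fell 3.22-fold with mock (-1.69 ± 0.25, adjusted p = 2e-06) and 5.87-fold with anti-miR-22 (-2.55 ± 0.25, adjusted p = 7.08e-10). Both probes are among the brightest of the array, where single values reach 19.92, and a possible compression of bright values was not tested.

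Slc22a22, a renal prostaglandin-specific anion carrier, had the largest fall of all 59 genes. It read 13.14, 13.05, 13.27, 12.70 and 13.27 on the sham mock arrays and 12.53, 13.01, 12.46, 12.88 and 12.63 on the sham anti-miR-22 arrays. With glycerol it ran from 6.00 through 6.96 to 7.45 in the mock group and from 5.44 through 6.06 to 7.72 in the anti-miR-22 group. The lowest sham array and the highest glycerol array were far apart in each comparison. The fold was 72.6 with mock (-6.18 ± 0.27, adjusted p = 1.29e-17) and 82.0 with anti-miR-22 (-6.36 ± 0.27, adjusted p = 4.93e-18). Slc22a7 (OAT2) read 12.09, 12.30, 9.09, 12.53 and 12.56 with sham mock and 12.69, 12.74, 12.29, 12.88 and 12.21 with sham anti-miR-22. Glycerol values were 7.69, 8.38 and 9.23 (lowest, median, highest) with mock and 6.95, 7.22 and 8.40 with anti-miR-22. Sham mock array 3 lay among the glycerol values, and the other 4 did not. The fall was 10.5-fold with mock (-3.39 ± 0.40, adjusted p = 3.72e-08) and -4.04 on the log2 scale without sham mock array 3. With anti-miR-22 it was 35.8-fold (-5.16 ± 0.40, adjusted p = 4.88e-12).

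Slc22a13, which carries urate and nicotinate, read 14.87, 14.87, 14.79, 15.21 and 15.27 with sham mock, against 11.48, 12.05 and 12.89 (lowest, median, highest) with glycerol and mock. It fell 7.64-fold with mock (-2.93 ± 0.20, adjusted p = 3.52e-13) and 10.8-fold with anti-miR-22. Slc22a13b, a close relative by symbol, fell 7.28-fold and 9.32-fold. Whether the probes of such relatives share hybridising RNA was not tested. Slc22a12 (URAT1), the urate reabsorber of the luminal membrane, read 17.34, 17.41, 16.64, 17.30 and 17.32 with sham mock and 16.32, 16.72 and 17.19 with glycerol and mock. Its difference of -0.39 did not pass with mock (adjusted p = 0.0513) and passed without sham mock array 3 (-0.53, adjusted p = 0.0065), sham anti-miR-22 array 3 (0.05), or glycerol mock array 1 (0.0241) or 6 (0.0249), and in 5 other alternatives (0.0142 to 0.0409). With anti-miR-22 it passed at 1.34-fold lower (-0.42, adjusted p = 0.0327). That call was lost without sham anti-miR-22 array 1, 2 or 4, without glycerol anti-miR-22 array 3 or 4, and after centring arrays on their medians (adjusted p from 0.0502 to 0.0942). Slc22a20 was the remaining anion carrier, dim throughout (group means 3.30 to 3.60), and was not called in any comparison.

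Of these anion carriers 8 are neighbours on chromosome 19. In the RefSeq gene order of GRCm38.p6 they are the only protein-coding genes from Slc22a19 to Slc22a6, in the order Slc22a19, Slc22a26, Slc22a27, Slc22a28, Slc22a29, Slc22a30, Slc22a8 and Slc22a6. All 8 were lower in both comparisons, with a median difference of -2.31 with mock and -2.57 with anti-miR-22. Glycerol and sham arrays did not overlap for 7 of them with mock and 8 with anti-miR-22. Slc22a28 read 15.87, 16.06, 15.73, 16.09 and 16.16 with sham mock, and 15.91, 16.21, 15.93, 16.15 and 15.96 with sham anti-miR-22. It dropped to 12.20, 12.80 and 13.06 (lowest, median, highest) with glycerol and mock and to 11.98, 12.44 and 12.75 with anti-miR-22, below every sham array in both. These are falls of 9.43-fold (-3.24 ± 0.14, adjusted p = 1.83e-17) and 12.2-fold (-3.60 ± 0.14, adjusted p = 1.12e-18). Slc22a30 read 15.38, 15.65, 15.30, 15.85 and 15.68 with sham mock, and 12.40, 12.97 and 13.40 with glycerol and mock. It fell 6.23-fold with mock (-2.64 ± 0.19, adjusted p = 1.07e-12) and 5.98-fold with anti-miR-22. Slc22a26 fell 8.30-fold and 12.3-fold, and Slc22a19 fell 6.54-fold and 9.45-fold, with mock and anti-miR-22 in that order. Slc22a29 and Slc22a27 are given on the log2 scale only, because their glycerol means lie below the array medians. Slc22a29 was lower by -1.98 and -1.85, from sham means of 6.71 and 6.68. Slc22a27, dim in all groups, was lower by -1.07 and -0.95. Close copies in this run may share probe signal, and that was not tested.

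**Figure D2:**
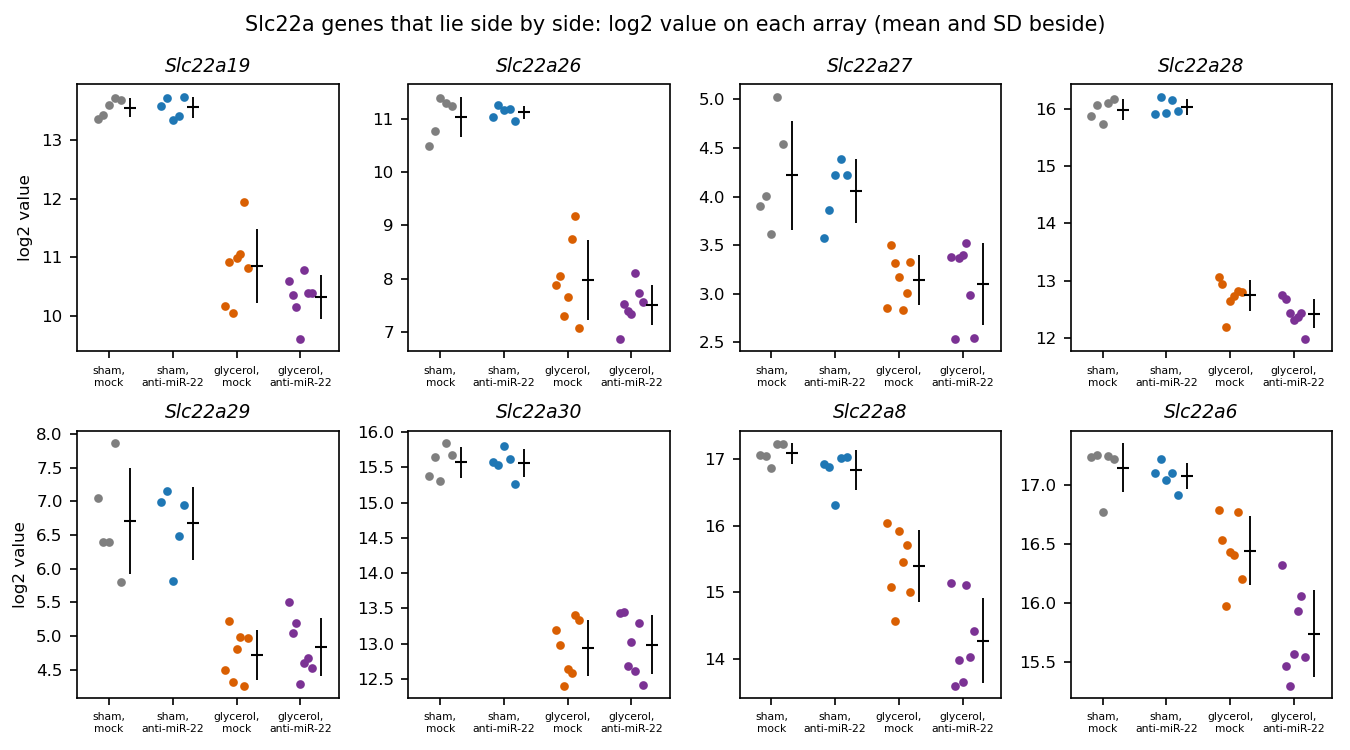
Log2 value on each array of the 8 adjacent Slc22a genes, one panel each with its own axis, for the 4 groups, with mean and SD drawn beside the points. Glycerol points lie below the sham points in every panel except Slc22a6, where sham mock array 3 (16.78) falls within the glycerol mock range of 15.98 to 16.79.

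Promoter sequences of 4 genes of the run are shown because all genes of the run were lower after glycerol; the pairs are its first-described members and 2 close copies. Each is 300 bases from RefSeq, 250 before the start and 50 after it, on GRCm38.p6: Slc22a6 chr19:8617746-8618045 (plus strand), Slc22a8 chr19:8592932-8593231 (plus strand), Slc22a28 chr19:8131933-8132232 (minus strand) and Slc22a30 chr19:8405056-8405355 (minus strand). Capitals mark GTTAAT, a partial site of the liver and kidney factor HNF1, searched on both strands.
Slc22a6: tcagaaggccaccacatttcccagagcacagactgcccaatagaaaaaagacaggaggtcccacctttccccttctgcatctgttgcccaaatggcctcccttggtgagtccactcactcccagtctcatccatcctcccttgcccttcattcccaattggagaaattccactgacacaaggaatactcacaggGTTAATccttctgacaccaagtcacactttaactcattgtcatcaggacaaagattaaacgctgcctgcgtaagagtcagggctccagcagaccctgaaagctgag
Slc22a8: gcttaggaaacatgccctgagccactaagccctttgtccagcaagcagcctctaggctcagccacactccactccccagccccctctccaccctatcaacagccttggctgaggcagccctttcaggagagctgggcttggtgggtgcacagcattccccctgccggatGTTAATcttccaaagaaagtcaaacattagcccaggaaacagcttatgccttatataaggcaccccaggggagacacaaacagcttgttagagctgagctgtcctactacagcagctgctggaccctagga
Slc22a28: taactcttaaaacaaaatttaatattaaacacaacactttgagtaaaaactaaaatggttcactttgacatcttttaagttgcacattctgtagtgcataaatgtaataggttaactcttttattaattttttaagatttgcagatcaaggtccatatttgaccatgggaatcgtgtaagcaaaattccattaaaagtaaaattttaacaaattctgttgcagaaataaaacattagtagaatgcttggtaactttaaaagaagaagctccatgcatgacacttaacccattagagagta
Slc22a30: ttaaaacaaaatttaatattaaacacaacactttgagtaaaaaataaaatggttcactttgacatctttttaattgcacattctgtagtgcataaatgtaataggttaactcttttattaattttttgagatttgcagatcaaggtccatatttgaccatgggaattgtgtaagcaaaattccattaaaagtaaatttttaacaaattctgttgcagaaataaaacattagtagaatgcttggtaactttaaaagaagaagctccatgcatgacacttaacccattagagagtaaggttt
The match began at position -56 from the start in Slc22a6 and at -81 in Slc22a8. These letters were not in the other windows shown. Over all 32851 promoters of the table, 7.1% hold these letters. Of the 59 genes, 48 had a promoter in the table, 55 promoters in all, and 4 genes held these letters (Slc22a6, Slc22a8, Slc22a29 and Slco1b2). The Slc22a28 and Slc22a30 windows were 94.1% identical. The antioxidant response element, TGACNNNGC on either strand, was held by 10 of the 55 promoters (18.2%), against 12.4% of all promoters. The 10 belonged to 8 genes: Abcb1a, Abcc2, Abcc4, Abcc10, Slc22a20, Slc22a27, Slco4c1 and Slco6d1. For glycerol with mock, Abcb1a and Abcc4 were higher, Abcc10, Slc22a27 and Slco4c1 lower, and Abcc2, Slc22a20 and Slco6d1 not called. The letters CACGTG (E-box) were in 4 of the 55 promoters (7.27%), against 7.15% of all. The letters TTATGTAA (D-box) were in 2 of the 55 (3.64%, Slc22a20 and Slc22a26), against 0.938% of all. The HNF4 site CAAAGTCCA, the CREB site TGACGTCA, the HNF1 palindrome and a direct repeat bound by nuclear receptors were in none of the 55.

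The cation and carnitine carriers of Slc22a numbered 6, of which 4 were lower and 1 higher with either oligonucleotide. Slc22a2 (OCT2), the blood-side uptake carrier for cations such as metformin and creatinine, read 15.77, 15.80, 15.15, 15.67 and 16.07 with sham mock and 14.28, 14.92 and 15.20 (lowest, median, highest) with glycerol and mock. It fell 1.83-fold (-0.87 ± 0.24, adjusted p = 0.00398) with mock and 2.57-fold (-1.36 ± 0.24, adjusted p = 2.08e-05) with anti-miR-22, and its ranges overlapped in both comparisons. Slc22a5 (OCTN2), the high-affinity carnitine carrier, was tight in the sham mock group at 12.33, 12.27, 12.32, 12.40 and 12.36. It ran from 10.43 through 10.75 to 11.41 with glycerol and mock, and from 10.22 through 10.33 to 10.53 with glycerol and anti-miR-22, below every sham array. It fell 2.78-fold (-1.47 ± 0.14, adjusted p = 4.02e-10) and 3.47-fold (-1.79 ± 0.14, adjusted p = 4.75e-12). Slc22a4 (OCTN1), an ergothioneine carrier, fell 2.39-fold and 2.47-fold, and Slc22a21 fell 2.55-fold and 2.10-fold. Slc22a5, Slc22a21 and Slc22a4 are adjacent in the gene order. Slc22a15 was the gene higher with both, by 0.59 and 0.58 on the log2 scale from dim sham means of 4.62 and 4.50. Its mock call was lost without sham mock array 3 (adjusted p = 0.0898). Its anti-miR-22 call was lost without sham anti-miR-22 array 1 (adjusted p = 0.0777) or glycerol anti-miR-22 array 3 (adjusted p = 0.0503).

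Slc47a1 (MATE1), the luminal exchanger that completes cation secretion, read 15.54, 15.44, 14.71, 15.36 and 15.43 with sham mock and 15.49, 15.39, 15.39, 15.59 and 15.19 with sham anti-miR-22. With glycerol it ran from 14.34 through 14.79 to 15.02 with mock and from 14.21 through 14.49 to 14.67 with anti-miR-22. Sham mock array 3 lay within the glycerol mock range, and the groups with anti-miR-22 did not overlap. It fell 1.49-fold (-0.57 ± 0.14, adjusted p = 0.0016) and 1.90-fold (-0.92 ± 0.14, adjusted p = 2.99e-06). Its neighbour Slc47a2 was dim and not called.

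The 4 Slc22a genes outside these groups included 3 that were lower in both comparisons. Slc22a17, the receptor for the iron-binding protein lipocalin 2, fell 3.28-fold with mock (-1.71 ± 0.21, adjusted p = 8.38e-08) and 3.25-fold with anti-miR-22. Slc22a23, an orphan carrier, fell 2.63-fold and 2.33-fold. Slc22a18 ran from 14.58 to 14.77 with sham mock and from 12.97 to 13.88 with glycerol and mock, and fell 2.43-fold and 3.03-fold. Slc22a14 was dim and not called.

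Slco carriers were split. Slco4c1, a kidney carrier of digoxin, thyroid hormone and uremic compounds, read 10.17, 9.88, 9.32, 10.18 and 9.89 with sham mock and 10.11, 9.89, 10.07, 10.33 and 9.83 with sham anti-miR-22. With glycerol it ran from 4.88 through 5.50 to 6.16 with mock and from 4.70 through 5.25 to 5.83 with anti-miR-22, no array near a sham array. Its glycerol means lie below the array medians (5.752 to 5.857), so no fold is given. The difference was -4.37 ± 0.20 with mock (adjusted p = 2.44e-17) and -4.80 ± 0.20 with anti-miR-22 (adjusted p = 1.98e-18), the second largest fall after Slc22a22 in the mock comparison. Slco2a1, the prostaglandin uptake carrier, went the other way. It read 6.86, 6.48, 6.06, 6.13 and 6.60 with sham mock, against 7.92, 8.12 and 8.45 (lowest, median, highest) with glycerol and mock. It rose 3.31-fold (1.72 ± 0.20, adjusted p = 1.7e-08) with mock and 2.70-fold (1.43 ± 0.20, adjusted p = 4.46e-07) with anti-miR-22, without overlap in either. Slco2a1 is also made by endothelium, of whose 9 markers 2 were higher and 5 lower with mock, and 1 higher and 6 lower with anti-miR-22.

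Slco3a1, a broadly expressed carrier of prostaglandins and thyroid hormone, rose 1.52-fold with mock (0.61 ± 0.14, adjusted p = 0.000969) and 1.58-fold with anti-miR-22. Slco2b1, a steroid sulfate carrier, fell 2.21-fold (-1.14 ± 0.15, adjusted p = 3.54e-07) and 2.10-fold. Among the 6 Slco1 genes, Slco1a1 and Slco1a6 were lower with both oligonucleotides and the other 4 were not called. Slco1a6 ran from 14.57 to 15.30 with sham mock and from 13.70 to 14.48 with glycerol and mock, and fell 1.85-fold (-0.89 ± 0.15, adjusted p = 9.77e-06) and 2.15-fold. Slco1a1 fell 2.27-fold (-1.18 ± 0.32, adjusted p = 0.00393) and 2.44-fold. Slco4a1, a thyroid hormone carrier with dim sham means of 4.59 and 4.62, was 0.44 higher with mock (adjusted p = 0.14) and 1.08 ± 0.23 higher with anti-miR-22 (adjusted p = 0.000231).

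The plasma membrane Abcb genes hold the 2 mouse P-glycoproteins. Abcb1a read 6.26, 6.66, 6.78, 6.43 and 6.90 with sham mock and 5.86, 6.27, 7.16, 6.53 and 6.53 with sham anti-miR-22. With glycerol it ran from 8.12 through 8.64 to 9.25 with mock and from 8.38 through 8.82 to 9.08 with anti-miR-22, all above every sham array. It rose 4.25-fold (2.09 ± 0.19, adjusted p = 2.14e-10) and 4.93-fold (2.30 ± 0.19, adjusted p = 2.16e-11). Abcb1b read 5.73, 6.20, 6.35, 5.95 and 6.02 with sham mock and 6.06, 5.93, 6.37, 5.73 and 6.47 with sham anti-miR-22. Its glycerol values ran from 7.48 through 8.43 to 8.96 and from 8.14 through 8.33 to 8.91, again without overlap. It rose 5.07-fold (2.34 ± 0.19, adjusted p = 1.36e-11) and 4.99-fold (2.32 ± 0.19, adjusted p = 1.41e-11). The neighbouring Abcb4, a phospholipid pump, was dim (group means 2.97 to 3.21) and not called, as were Abcb5 and Abcb11.

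The promoters of the P-glycoprotein pair are shown because the values of these neighbouring genes rose to a like extent while their promoter windows were unlike. Whether the probes of these close relatives share hybridising RNA was not tested. They lie at chr5:8566841-8567140 (Abcb1a) and chr5:8797897-8798196 (Abcb1b) on GRCm38.p6, both on the plus strand, from RefSeq. Capitals mark the antioxidant response element TGACNNNGC, here matched on the opposite strand. The holders of this element listed above included genes that rose, genes that fell and genes not called. A part of the element in these values was not tested.
Abcb1a: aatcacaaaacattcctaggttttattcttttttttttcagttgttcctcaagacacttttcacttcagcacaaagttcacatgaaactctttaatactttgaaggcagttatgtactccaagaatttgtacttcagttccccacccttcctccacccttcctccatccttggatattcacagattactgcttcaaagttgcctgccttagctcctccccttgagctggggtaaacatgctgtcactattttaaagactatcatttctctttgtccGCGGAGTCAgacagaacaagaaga
Abcb1b: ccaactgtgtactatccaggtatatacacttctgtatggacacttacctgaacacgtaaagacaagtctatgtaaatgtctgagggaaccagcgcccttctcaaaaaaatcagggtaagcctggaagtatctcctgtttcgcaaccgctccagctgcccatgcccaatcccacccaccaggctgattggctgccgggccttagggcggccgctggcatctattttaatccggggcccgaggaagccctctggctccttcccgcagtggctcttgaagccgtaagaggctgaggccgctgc
The match began 27 bases after the Abcb1a start, and Abcb1b held none. The windows were 47.8% identical.

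The Abcb carriers of mitochondria and lysosomes were lower where called. Abcb8, a mitochondrial carrier linked to iron export, read 9.23, 9.71, 9.19, 9.60 and 9.52 with sham mock and 8.10, 8.32 and 8.56 (lowest, median, highest) with glycerol and mock. It fell 2.16-fold with mock (-1.11 ± 0.13, adjusted p = 5.65e-08) and by -1.11 with anti-miR-22 (adjusted p = 4.97e-08). Abcb9, a lysosomal peptide carrier, was -0.27 with mock (adjusted p = 0.195) and fell 1.71-fold with anti-miR-22 (-0.78 ± 0.16, adjusted p = 0.000142). Abcb10, a mitochondrial carrier of erythroid and other cells, was -0.50 with mock (adjusted p = 0.068; 0.0346 to 0.0483 without sham mock array 4, sham anti-miR-22 array 1, glycerol mock array 1 or glycerol anti-miR-22 array 2). It passed with anti-miR-22 (-0.55, adjusted p = 0.04). That call was lost without sham anti-miR-22 array 1, 3 or 5, without glycerol anti-miR-22 array 1, 3, 4, 5 or 6, and after centring on array medians (adjusted p from 0.0544 to 0.208). Abcb6 was not called.

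Of the 8 multidrug resistance proteins of Abcc, 4 were higher and 2 lower with either oligonucleotide. Abcc4 (MRP4), a luminal pump for organic anions and cyclic nucleotides, read 11.10, 10.55, 10.42, 10.45 and 10.73 with sham mock and 11.16, 11.43 and 11.88 (lowest, median, highest) with glycerol and mock. It rose 1.88-fold with mock (0.91 ± 0.17, adjusted p = 5.51e-05), without overlap. With anti-miR-22 its difference was 0.42 (adjusted p = 0.0484), and it missed the threshold in 20 of 31 alternatives (adjusted p up to 0.172). Among these were 17 that leave out 1 array: sham mock 2, 4 or 5, sham anti-miR-22 1, 2, 3 or 4, glycerol mock 3, 4, 5 or 7, and glycerol anti-miR-22 1, 2, 3, 4, 6 or 7.

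Abcc1 (MRP1), a basolateral glutathione conjugate pump, read 7.79, 7.34, 7.57, 7.88 and 7.70 with sham mock, and 8.14, 8.62 and 8.84 with glycerol and mock. It rose 1.84-fold (0.88 ± 0.14, adjusted p = 8.94e-06) and, with anti-miR-22, 2.11-fold (1.08 ± 0.14, adjusted p = 2.53e-07). Abcc5 (MRP5), a cyclic nucleotide pump, rose 1.82-fold (0.86 ± 0.15, adjusted p = 2.23e-05) and 1.45-fold (0.53 ± 0.15, adjusted p = 0.00493). Abcc3 was higher by 0.63 (adjusted p = 0.00385) and 0.66 (adjusted p = 0.00229) from dim sham means. Abcc10 fell 1.71-fold and 1.57-fold, and Abcc6 was lower by -0.57 and -0.66. Abcc2 (MRP2), the luminal pump for conjugates, was not called for glycerol: the difference was 0.11 with mock (95% interval -0.15 to 0.36) and -0.07 with anti-miR-22 (-0.33 to 0.18). Abcc9 (SUR2), the regulatory subunit of vascular and muscle potassium channels, was lower by -1.57 ± 0.17 with mock (adjusted p = 7.82e-09) and by -1.85 ± 0.17 with anti-miR-22 (adjusted p = 2.36e-10). Abcc8 and Abcc12 were dim and not called.

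**Figure D3:**
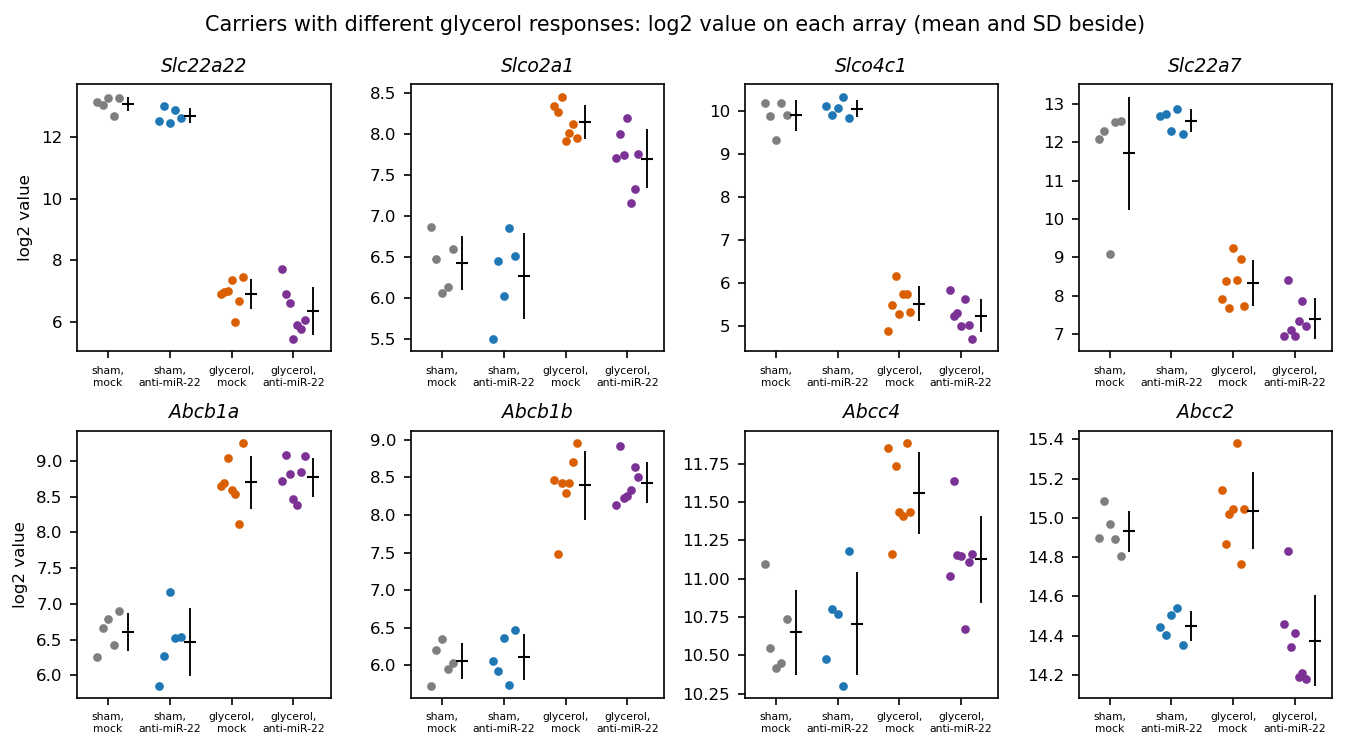
Log2 value on each array of 8 carriers, one panel each with its own axis, for the 4 groups, with mean and SD drawn beside the points. Slc22a22, Slco4c1 and Slc22a7 are low and Slco2a1, Abcb1a and Abcb1b high in both glycerol groups, and Abcc2 separates by oligonucleotide in the sham arrays (14.81 to 15.09 against 14.36 to 14.54).

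Anti-miR-22 was compared with mock within sham and within glycerol kidneys. In sham kidneys 3 of 59 genes passed (5.08%), all lower, against 7.16% of all probes (3.31% lower and 3.85% higher), so the share was near that of the array. In glycerol kidneys 14 passed (23.7%), against 19.6% of all probes; 11 were lower, where 10.2% of probes were, and 3 higher, where 9.48% were. The median difference was -0.10 in sham and -0.17 in glycerol kidneys, against 0.0028 and 0.0152 over all probes. Every anti-miR-22 array lay below every mock array for 3 genes in sham (Abcb8, Abcc2 and Slc22a5) and 1 in glycerol kidneys (Abcb8), where 3.95% and 3.92% of all probes did so. Every one lay above for 0 genes in sham and 2 in glycerol kidneys (Abcc1 and Slc22a4), where 4.32% and 3.45% of all probes did so. The difference between the anti-miR-22 effects in glycerol and sham kidneys was called by limma for 0 of the 59 genes, 7 being below an unadjusted p of 0.05, and for 0.383% of all probes.

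Abcb8 and Abcc2 were lower with anti-miR-22 in both conditions. Endothelial markers also differed in sham kidneys: 2 of 9 were lower and 0 higher (median -0.38), and their sums were 96.26 to 97.73 with mock and 92.97 to 95.54 with anti-miR-22, without overlap. The part of that shift in the sham results was not tested. Abcb8 read 8.51, 8.40, 8.44, 8.70 and 8.62 on the sham anti-miR-22 arrays, below the lowest sham mock array at 9.19. In glycerol kidneys its anti-miR-22 values ran from 7.05 through 7.55 to 7.65, below the lowest glycerol mock array at 8.10. It fell 1.89-fold in sham (-0.91 ± 0.15, adjusted p = 6.64e-05) and 1.88-fold in glycerol kidneys (-0.91 ± 0.12, adjusted p = 1.32e-06). The difference between these effects was 0.00 (95% interval -0.39 to 0.39). Abcc2 read 14.90, 15.09, 14.97, 14.89 and 14.81 with sham mock and 14.45, 14.40, 14.50, 14.54 and 14.36 with sham anti-miR-22. In glycerol kidneys it ran from 14.77 through 15.04 to 15.38 with mock and from 14.18 through 14.34 to 14.83 with anti-miR-22, where 1 anti-miR-22 array reached the mock range. It fell 1.40-fold in sham (-0.48 ± 0.14, adjusted p = 0.023) and 1.58-fold in glycerol kidneys (-0.66 ± 0.11, adjusted p = 5.65e-05). The sham call was lost without sham mock array 2 (adjusted p = 0.0662), sham anti-miR-22 array 2 (0.0508) or 5 (0.0596), and after a second quantile normalization (0.0685). Slc22a21 was called lower in sham kidneys (-0.70 ± 0.22, adjusted p = 0.0447), and its difference in glycerol kidneys was -0.42 (adjusted p = 0.114). The difference between these effects was 0.28 (95% interval -0.30 to 0.86, adjusted p = 0.757). The sham call was lost in 11 of 31 alternatives, each leaving out 1 array: sham mock 2, 3, 4 or 5, sham anti-miR-22 3, 4 or 5, glycerol mock 2 or 3, or glycerol anti-miR-22 1 or 6 (adjusted p up to 0.159).

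In glycerol kidneys the anion carriers Slc22a8 and Slc22a6 were lower with anti-miR-22 than with mock. Slc22a8 fell 2.17-fold (-1.12 ± 0.23, adjusted p = 0.000461) and Slc22a6 1.63-fold (-0.70 ± 0.15, adjusted p = 0.000716), and the ranges overlapped for both. In sham kidneys their differences were -0.25 and -0.07 and were not called. The difference between the effects was -0.87 for Slc22a8 (95% interval -1.59 to -0.14, adjusted p = 0.287) and -0.63 for Slc22a6 (-1.11 to -0.16, adjusted p = 0.214), so neither was past the threshold. The largest such difference was that of Slc22a7, -1.77 ± 0.57 (-2.94 to -0.61, adjusted p = 0.147), and it was -1.12 without sham mock array 3. Slc22a5 fell 1.44-fold (-0.52 ± 0.13, adjusted p = 0.00278) and Slc22a18 1.36-fold (-0.44 ± 0.13, adjusted p = 0.0148). Slc22a13 fell 1.48-fold (-0.56 ± 0.18, adjusted p = 0.0276), and that call was lost without glycerol mock array 1 (0.0575) or 6 (0.0835) or glycerol anti-miR-22 array 3 (0.0796) or 4 (0.0505). Their sham differences, not called, were -0.20, -0.12 and -0.06 in that order.

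Among the Slco and Abcc genes of glycerol kidneys, Slco1a6 fell 1.60-fold with anti-miR-22 (-0.67 ± 0.13, adjusted p = 0.000297). Slco1a1 fell 1.87-fold (-0.90 ± 0.29, adjusted p = 0.0268), a call lost without glycerol mock array 2 (0.0633) or 7 (0.0538), glycerol anti-miR-22 array 5 (0.0777) or 7 (0.061), or with trended robust moderation (0.0624). Abcc5 fell 1.49-fold (-0.58 ± 0.14, adjusted p = 0.00223). Abcc4 was lower by -0.43 (adjusted p = 0.0458), a call lost in 15 of 31 alternatives (adjusted p up to 0.118). Those that leave out 1 array were sham mock 2 or 5, sham anti-miR-22 2 or 3, glycerol mock 1, 3, 6 or 7, and glycerol anti-miR-22 1, 3, 4, 5, 6 or 7. Higher with anti-miR-22 were Abcc1, 1.60-fold (0.68 ± 0.13, adjusted p = 0.000243), Slc22a4, 1.39-fold (0.48 ± 0.14, adjusted p = 0.0137), and Slco4a1, by 0.67 ± 0.21 on the log2 scale (adjusted p = 0.0178; 0.0569 without glycerol anti-miR-22 array 3). In sham kidneys Slc22a4 differed by 0.52 (adjusted p = 0.0511), and it passed there in 8 of 31 alternatives, among them without sham mock array 1 or 2, glycerol mock array 6 or glycerol anti-miR-22 array 1 or 2. Abcc1 differed by 0.47 in sham kidneys (adjusted p = 0.0598) and passed in 5 of 31, among them without sham anti-miR-22 array 4 or glycerol mock array 2. The difference between the glycerol and sham effects was -0.05 for Slc22a4 (adjusted p = 0.963) and 0.20 for Abcc1 (adjusted p = 0.756). The sham differences of the others, not called, were -0.80 for Slco1a1, -0.46 for Slco1a6 (called without sham mock array 4, adjusted p = 0.023, and with trended robust moderation, 0.0406), -0.25 for Abcc5, 0.06 for Abcc4 and 0.04 for Slco4a1. In glycerol kidneys Slc22a4 ran from 9.07 to 9.51 with mock and from 9.55 to 10.09 with anti-miR-22. Abcc1 ran from 8.14 to 8.84 and from 8.89 to 9.37. Abcb1a and Abcb1b differed by 0.07 (95% interval -0.28 to 0.43) and 0.04. In the same comparison 6 of 15 proximal tubule markers were lower and 3 higher, and 5 of 9 endothelial markers were lower and 0 higher, with endothelial sums of 93.06 to 96.21 with mock and 88.1 to 90.67 with anti-miR-22. Of the 5 neutrophil markers 2 were higher and 0 lower, with a median difference of 0.41. The neutrophil sum was 29.22, 30.95 and 29.88 on glycerol anti-miR-22 arrays 1 to 3 and 25.10 to 25.98 on the other 4, against 23.28 to 27.09 with mock. Of the 6 stroma markers 1 was higher and 1 lower, and of the 8 macrophage markers 0 were higher and 1 lower. The part of these shifts in the transporter values was not tested.

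**Figure D4:**
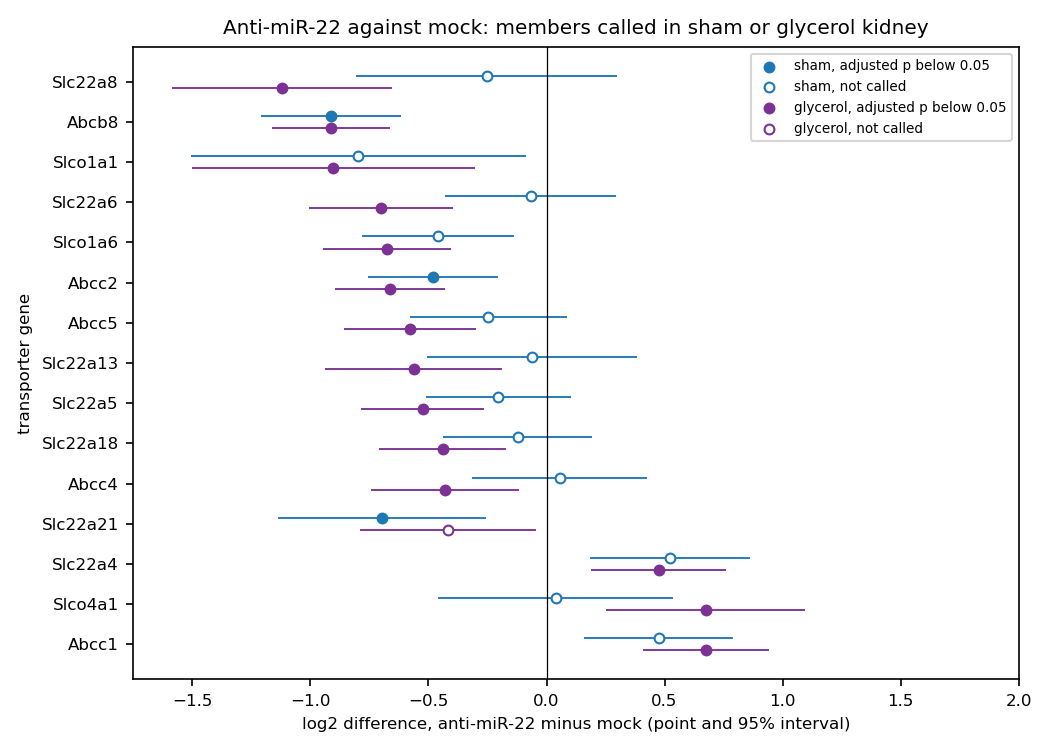
Log2 difference of anti-miR-22 minus mock (point) with its 95% interval (line) in sham and in glycerol kidneys, for the 15 genes called in either, filled where the adjusted p was below 0.05. Abcb8 sits at -0.91 in both conditions, and Slc22a8 at -0.25 in sham and -1.12 in glycerol kidneys.

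Genes that work with these carriers were also counted by list. For glycerol, 16.4% of all probes were lower and 18% higher with mock, and 17.6% and 19.8% with anti-miR-22. Of 12 measured exchange and scaffold partners, 9 were lower and 1 higher for glycerol with mock, and 9 lower and 0 higher with anti-miR-22. Slc13a3 and Slc5a12 of this list were also counted among the proximal tubule markers above. The sodium-coupled monocarboxylate carriers Slc5a8 and Slc5a12 fell by 4.59 and 3.65 on the log2 scale with mock. The scaffold Pdzk1, which anchors carriers at the luminal membrane, fell by 2.79. Slc13a3, the dicarboxylate carrier that feeds the exchange of Slc22a6 and Slc22a8, fell by 1.52 with mock and by 2.95 with anti-miR-22. In glycerol kidneys it was 1.91 log2 units lower with anti-miR-22 than with mock (difference -1.91, adjusted p = 1.15e-05). The scaffold Slc9a3r1 was higher with anti-miR-22 in sham (1.12, adjusted p = 5.9e-05) and glycerol kidneys (1.52, adjusted p = 4.78e-09). Of 13 other drug carriers, 6 were lower and 1 higher with mock, and 8 lower and 1 higher with anti-miR-22. Slc15a2, a peptide and antibiotic carrier, fell by 3.40 with mock, and the lipid exporter Abca1 rose by 1.53. The drug and urate pump Abcg2 was not called for glycerol (-0.19 with mock), and was higher with anti-miR-22 in sham (1.06) and glycerol kidneys (1.00). For anti-miR-22 against mock, 1 exchange or scaffold partner was higher and 1 lower in sham, and 1 higher and 4 lower in glycerol kidneys. Of the other drug carriers, 3 were higher and 1 lower in sham, and 2 higher and 1 lower in glycerol kidneys. Of all probes, 3.85% were higher and 3.31% lower in sham, and 9.48% and 10.2% in glycerol kidneys.

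Of 13 measured transcription factors that act on carrier genes, 6 were lower and 3 higher for glycerol with mock, and 6 lower and 2 higher with anti-miR-22. Of all probes, 16.4% were lower and 18% higher with mock, and 17.6% and 19.8% with anti-miR-22. Hnf4a, which drives proximal tubule genes, fell by 1.19 with mock, the bile acid receptor Nr1h4 by 1.21, the vitamin D receptor Vdr by 1.79 and the fatty acid receptor Ppara by 1.57. Cebpb rose by 1.97, and Nfe2l2, the factor that binds the antioxidant response element, rose by 0.81. For anti-miR-22 against mock, 1 of the 13 was lower and 2 higher in sham kidneys. In glycerol kidneys 3 were lower and 2 higher, with a median difference of 0.11. Of all probes, 3.31% were lower and 3.85% higher in sham, and 10.2% and 9.48% in glycerol kidneys. In glycerol kidneys Ppara (-1.67, adjusted p = 9.08e-09), Hnf4g (-1.17, adjusted p = 1.4e-06) and Hnf4a (-0.60, adjusted p = 0.0185) were lower. The glucocorticoid receptor Nr3c1 (0.90, adjusted p = 1.62e-06) and Nfe2l2 (0.49, adjusted p = 0.0098) were higher.

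The 17 genes called in no comparison were Abcb4, Abcb5, Abcb6, Abcb11, Abcc8, Abcc12, Slc22a14, Slc22a16, Slc22a20, Slc47a2, Slco1a4, Slco1a5, Slco1b2, Slco1c1, Slco5a1, Slco6c1 and Slco6d1. In all, 11 of the 59 genes lay below the 25th percentile of probe means (3.96), and 1 of these, Slc22a27, was called. Of the 48 above it, 36 were called for glycerol with mock and 40 with anti-miR-22. The dim-probe filter left out only genes below this percentile. Abcc3, Abcc12, Slc22a14, Slc22a15, Slc47a2 and Slco4a1, described above as dim or with dim sham means, lay above it and were kept.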

How the data were processed

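Values were the log2 values deposited by the authors, 1 column per array. The submitters' processing notes list RMA and Partek 6.4 with no role for either, and a genome build is not given in the sources used here. RMA brings arrays to a common distribution, and its processing as a whole can compress dim probes. Of 22206 probes, 1 was left out because only 5 arrays had a value for it. Of 22205 tested, 19572 had 1 symbol, 0 several and 2633 none. Genes were matched to RefSeq by Entrez identifier (59 of 59).

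Group means were fitted on all 24 arrays with limma 3.58.1 (lmFit, eBayes, two-sided) in R 4.3.3, with Benjamini-Hochberg adjustment over all probes; the tests were checked on simulated data. Calls are at an adjusted p below 0.05. The named-gene rule gives full statistics to up to 10 called members per direction and contrast and to 35 kidney transporters; any member may be named. Members, partner and marker lists, motifs and tests were chosen with earlier results of these data known. Folds are 2 to the power of the difference, given only where both means exceed the array medians. Alternatives were moderation, normalization, centring, dim-probe filter, probe averaging, array weights, replicate block and leaving out each array. Nothing states that arrays come from separate animals, so p-values speak only of the spread among these arrays, and the number of arrays limits precision.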

Additional observations from a re-analysis of the deposited data

Results flagged for a closer look

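In 9 of 236 groups of arrays, over the 59 genes and 4 groups, the highest or lowest array stood apart from the rest by Dixon's criterion, and chance gives about 1 in 20, or 11.8. Sham mock array 3 was the lowest of its group for 4 carriers of the tubule: Slc22a7 at 9.09 (others 12.09 to 12.56), Slc22a6 at 16.78 (17.23 to 17.26), Slc22a12 at 16.64 (17.30 to 17.41) and Slc47a1 at 14.71 (15.36 to 15.54). Glycerol anti-miR-22 array 2 was the highest of its group for Abcb10 at 7.43 (6.14 to 6.62), Abcc2 at 14.83 (14.18 to 14.46) and Slc22a23 at 10.81 (9.75 to 10.21). Sham anti-miR-22 array 3 was the lowest for Slc22a8 at 16.31 (16.88 to 17.02), and glycerol anti-miR-22 array 1 the highest for Slco3a1 at 14.92 (14.09 to 14.43).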

How the results depend on the processing

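No call reversed its direction in any alternative. Of the calls, 36 of 37 for glycerol with mock, 37 of 41 for glycerol with anti-miR-22, 1 of 3 for anti-miR-22 in sham and 10 of 14 in glycerol kidneys passed in every alternative that tested them, and 6, 1, 3 and 10 further genes passed in some. Leaving out each array gave 37 to 39, 37 to 41, 1 to 4 and 11 to 17 called genes in the same order, and 0 for the difference between effects. The sham count of 3 became 5 with trended robust moderation, with dim probes left out and with array weights, and 1 without sham anti-miR-22 array 5. Slc22a7 with mock was the 1 called value moved by over 1.5 times (1.575, without sham mock array 3). Probes were not judged against a background level, so small values in dim genes are the least certain.

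The replicate numbers did not pair the arrays: over 32 same-numbered pairs, correlations of deviations ran from -0.108 to 0.102, with 1 over 0.1, and 6 of 24 arrays correlated best with their own number. With the number as a replicate block, 39, 40, 3 and 16 genes were called in the same order, and 0 for the difference.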
